A study of Mus musculus with 2 samples.

Results

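The genes described here encode 6 molecules that let blood leukocytes hold on to a vessel wall: the selectins Selp and Sele, the selectin ligand Selplg, and the immunoglobulin-family adhesion molecules Vcam1, Icam1 and Icam2. They were taken by gene symbol, not by any measured value, and are 6 of the 20140 genes in the tables. Leukocytes leave the blood in steps: selectins on endothelium catch passing cells and let them roll, chemokines on the vessel surface switch leukocyte integrins to their binding form, and the integrins then grip ICAM and VCAM proteins. In venules, P-selectin is stored ready-made in Weibel-Palade bodies, while E-selectin, VCAM-1 and ICAM-1 are made anew when inflammatory cytokines activate the transcription factor NF-kB. ICAM-2 is carried by endothelium at rest.

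The material was salivary gland (submandibular with sublingual) taken 14 days after surgery from female mice, strain C57BL6/J, at an age of 14 weeks. In the ligated group the main ducts had been shut with a metal clip, and in the mock group the ducts were found and left free. Each group was 1 droplet library (10X Genomics) of 2 pooled glands, from which bead depletion had removed cells carrying EpCAM (epithelium) or Ter119 (red cell lineage) and then dead cells. With 1 library per group there is no replicate spread and no test, so every difference describes these 2 libraries.

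The values are means over the cells of a cluster, in UMIs (captured RNA molecules) of a gene per 10000 UMIs of a cell. A mean of this kind cannot tell fewer cells with a transcript from less transcript per cell. Differences between libraries are given as log2((ligated + 0.1)/(mock + 0.1)), so those of low genes are understated. A gene was past the size rule in a cluster when the higher of its values reached 0.5 and the difference reached 1 in size. Of 12 clusters, 9 had 50 cells or more from both libraries and were compared; clusters 8, 9 and 11 had fewer and are given as levels.

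Cell numbers recovered from the means were 4199 in the mock and 11406 in the ligated library. The labels call the material enriched for stroma, and by markers most cells were endothelial-like or leukocyte-like. Endothelial-like clusters 0 and 4 held 61.7% of mock and 30.5% of ligated cells. The natural killer-like, T cell-like and macrophage-like clusters 1, 2 and 5 together held 21.7% and 47.6%. Fibroblast-like cluster 3 held 4.48% and 10.1%. The other clusters compared were mural-like (6), ductal-like (7) and erythroid-like (10). The median recovered UMI total was 6556.5 in 608 mock cells and 6720 in 2173 ligated cells, among which deep cells are over-represented. Clusters 8 and 11 held unlike cells in the 2 libraries by markers. The acinar sum of cluster 8 was 810.9 in mock and 1.01 in ligated cells, and the neutrophil sum of cluster 11 was 36.7 and 0.0188. Markers of cell types foreign to a cluster stood at a median of 1.87% to 10.1% of their library mean in the 9 compared clusters of the mock library. In the ligated library this median was 7.37% to 25.4% in those clusters and 95.5% in cluster 8. Below, a member whose share of its own library mean is at or under this median is said to be at the level of foreign markers.

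Promoter sequences show where the known NF-kB control of this family could be read, and RefSeq promoter entries (GRCm38.p6) covered 3 of the 6 members. The 250 bases before each RefSeq start on the plus strand are given 5′ to 3′, with matches to GGANNTTCC or TATAAA in capitals, for Sele at chr1:164047984-164048233, Selp at chr1:164115014-164115263 and Icam1 at chr9:21015690-21015939.
Sele: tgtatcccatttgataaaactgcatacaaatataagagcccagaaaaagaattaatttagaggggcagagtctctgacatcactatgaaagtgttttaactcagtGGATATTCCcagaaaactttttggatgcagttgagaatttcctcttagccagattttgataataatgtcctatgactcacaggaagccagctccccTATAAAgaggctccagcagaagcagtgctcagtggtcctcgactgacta
Selp: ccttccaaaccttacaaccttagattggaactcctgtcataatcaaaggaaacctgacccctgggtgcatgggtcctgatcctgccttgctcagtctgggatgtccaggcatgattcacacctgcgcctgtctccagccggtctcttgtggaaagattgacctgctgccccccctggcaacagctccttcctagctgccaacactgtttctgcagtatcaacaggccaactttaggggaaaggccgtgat
Icam1: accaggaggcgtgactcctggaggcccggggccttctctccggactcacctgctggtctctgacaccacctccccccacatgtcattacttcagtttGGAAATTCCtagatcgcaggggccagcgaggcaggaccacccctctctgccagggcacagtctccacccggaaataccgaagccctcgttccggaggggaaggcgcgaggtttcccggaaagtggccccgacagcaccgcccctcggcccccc

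The Sele window held GGATATTCC from 145 to 137 bases before the start and a TATA box from 49 to 44 bases before it. The Icam1 window held GGAAATTCC from 153 to 145 bases before the start, and the Selp window held neither pattern. The pattern GGANNTTCC was chosen after these sequences had been seen. Searched on both strands, it occurred in 3.59% and TATAAA in 12.37% of 32851 promoter windows of this length. An NF-kB consensus, more common than GGANNTTCC at 7.25% of these windows, matched none of the 3. The RefSeq starts of Sele and Selp are the gene starts given next from GENCODE, while that of Icam1 lies upstream of its GENCODE start. A match here describes letters and not a bound site.

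In the genome (GENCODE vM21, GRCm38), Sele (chr1:164048234-164057677) and Selp (chr1:164115264-164150026) lie on the plus strand with 57.6 kb between them. Icam1 (chr9:21015985-21028817, plus strand) lies 555 bp before Icam4, another ICAM gene. Vcam1 (chr3:116109949-116129688), Selplg (chr5:113818536-113832644) and Icam2 (chr11:106377656-106388075) are on the minus strand. Annotated transcripts on the opposite strand overlap Selp (Gm16548 and Gm16587), Vcam1 (Gm43109) and Icam1 (Gm47079). Whether counting kept the strands apart is not given in the sources used here.

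The data showed 3 patterns. The selectins and Icam2 were carried by endothelium, and Selplg by leukocytes, in both libraries. In the second endothelial-like cluster 4, Selp stood 2.90-fold and Vcam1 3.76-fold lower in the ligated than in the mock library on the scale with 0.1 added. Outside endothelium, Vcam1 and Icam1 in fibroblast-like cells and Icam1 in leukocyte-like cells were higher in the ligated library. Each of these differences was under the size rule and lay between the 5th and 95th percentile of the genes measured in its cluster. Over the 54 pairs of a member and a compared cluster, 16 reached a value of 0.5 and 4 were past the size rule, 2 of them lower and 2 higher in the ligated library. Over all genes measured in these clusters, 9.06% were past the rule, 5.65% higher and 3.4% lower.

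**Figure D1:**
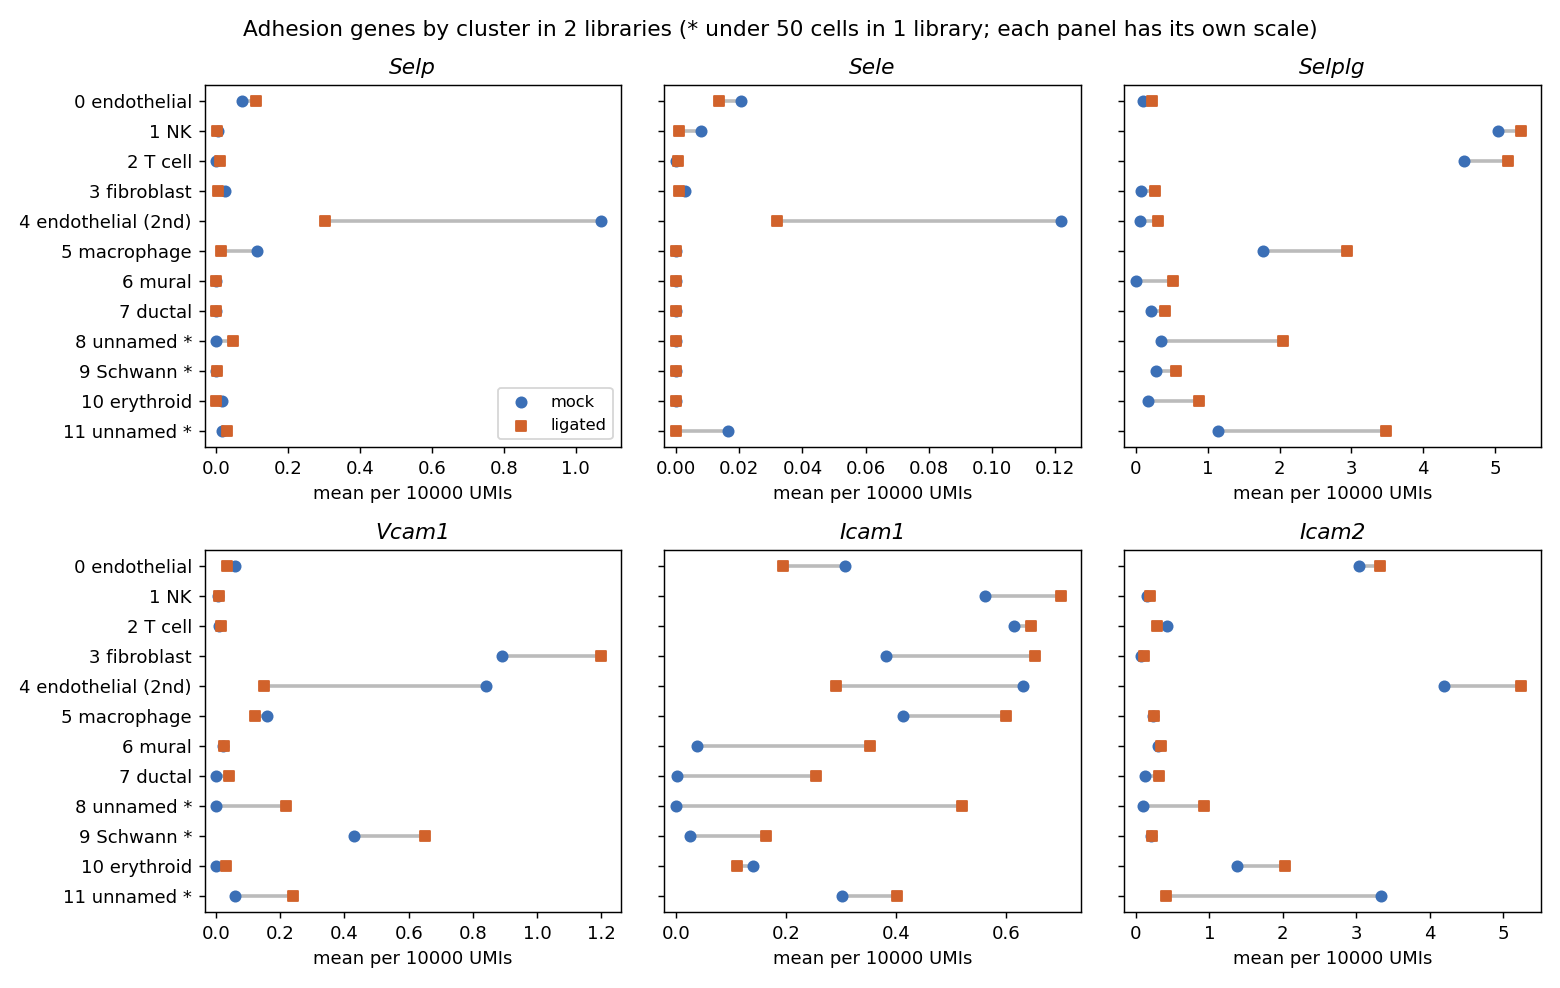
Level of each adhesion gene in the 12 clusters, with 1 point per library: mean UMIs per 10000, each panel on its own linear scale, clusters with fewer than 50 cells in 1 library starred. Selp reached its highest value, 1.07, in cluster 4 of the mock library, Selplg stood at 4.57 or more in clusters 1 and 2 of both libraries, and Vcam1 at 0.842 in cluster 4 of the mock library against 0.15 in the ligated one.

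Selp, P-selectin, catches leukocytes on activated venules and is also made by platelets. In cluster 4 its level was 1.07 in the 226 mock cells and 0.304 in the 531 ligated cells, a difference of -1.54. These means correspond to about 157 and 103 UMIs of the gene, if each cell had its library's median recovered total of the cluster. Such figures, given below as about so many UMIs, are a rough scale and not counts. The mock macrophage-like value of Selp, for example, came from 1 cell and gives 9.7 by this arithmetic. In the same cluster 1.93% of the 3831 genes measured (above 0 in both libraries, with a value of 0.5 or more in the cluster) were past the size rule in the lower direction and 2.04% in the higher one, 3.97% in all.

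In the main endothelial-like cluster 0, Selp went the other way at a far lower level, 0.0734 in mock and 0.11 in ligated cells, a difference of 0.28. No member was past the size rule in cluster 0, where 4.26% of the genes measured were. Cluster 4 carried 55.7% of all Selp of the mock library and 29.8% of that of the ligated library, while cluster 0 carried 39.8% and 60.1%. The 2 clusters together accounted for 95.5% and 89.9%.

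Elsewhere Selp was close to 0. It was listed at 0 in both libraries of mural-like and ductal-like cells, and between 0.0029 and 0.0252 in natural killer-like and fibroblast-like cells. T cell-like cells were listed at 0 in mock and at 0.0111 in the ligated library. The macrophage-like value of 0.113 in the mock library came from 1 cell, against 0.014 in the ligated library. It equals 1 UMI of 1149 in that cell, or the same multiple of both, which the means cannot tell apart. A single cell likewise made the whole ligated value of 0.0478 in cluster 8, where the mock library was listed at 0. That value equals 1 UMI of 793 or the same multiple of both. Each of these 2 higher values rests on 1 cell. Erythroid-like cells were at 0.0161 in mock and listed at 0 in ligated. Schwann-like cluster 9 was listed at 0 and at 0.0033, and cluster 11 stood at 0.0174 and 0.0316. The ligated Schwann-like value and the mock value of cluster 11 also came from 1 cell each.

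Platelet markers bear on Selp because platelets stick to vessels. In cluster 4 the summed level of the 7 platelet and megakaryocyte markers was 0.193 in mock and 0.0886 in ligated cells, with 6 of 7 lower, Clec1b at 0 in the mock library, and Gp9 and Treml1 at 0 in the ligated one. In mural-like cells the same sum was 3.69 in mock and 0.0227 in ligated cells, and Selp was listed at 0 in both. The part of platelet RNA in the Selp difference of cluster 4 was not tested.

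Sele, E-selectin, is made by activated endothelium and slows rolling cells. It was sparsely detected, with 0.122 in mock and 0.0321 in ligated cells of cluster 4, a difference of -0.75 from about 17.8 and 10.9 UMIs. Both values are under 0.5, so the size rule could not be met. In cluster 0 Sele stood at 0.0206 and 0.0136, from about 40.8 and 34 UMIs. Clusters 0 and 4 held 92.5% of the Sele of the mock and 91.7% of that of the ligated library.

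Sele was listed at 0 in both libraries of the macrophage-like, mural-like, ductal-like and erythroid-like clusters and of clusters 8 and 9. Natural killer-like cells gave 0.0078 and 0.001, fibroblast-like cells 0.0029 and 0.0009, T cell-like cells 0 and 0.0005, and cluster 11 gave 0.0164 and 0. The fibroblast-like mock value, the T cell-like ligated value and the cluster 11 mock value each came from 1 cell. No detection limit was computed for Sele.

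Selplg encodes PSGL-1, the leukocyte protein that P-selectin and E-selectin bind. Natural killer-like cells stood at 5.04 in the mock and 5.37 in the ligated library (difference 0.09), and T cell-like cells at 4.57 and 5.18 (0.18). Macrophage-like cells stood at 1.77 and 2.94, a difference of 0.70 from 77 and 680 cells. Selplg was thus higher in the ligated library in each of these clusters, by less than the size rule asks. No member was past the rule in them, where 2.12%, 3.01% and 6.51% of the genes measured were. Clusters 1, 2 and 5 carried 92.1% of the Selplg of the mock and 91.8% of that of the ligated library.

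Outside leukocytes Selplg was higher in the ligated library in the 6 compared clusters. Its ligated level was at or under that of foreign markers in 3 of them (0, 6 and 7) and above it in the other 3 (3, 4 and 10). Cluster 0 stood at 0.103 and 0.228, where foreign markers would place Selplg at 0.23 in the ligated library. Cluster 4 stood at 0.0597 and 0.312, against a ligated level of 0.302 from foreign markers. Fibroblast-like cells gave 0.0674 and 0.272 and ductal-like cells 0.215 and 0.403. Natural killer markers moved with these values: their sum over 9 genes was 0.555 in mock and 3.50 in ligated cells of cluster 4, and 0.434 and 2.25 in fibroblast-like cells, with 9 of 9 higher in both clusters.

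The mural-like cluster gave a Selplg level listed at 0 in 161 mock cells and 0.52 in 420 ligated cells, a difference of 2.63. This pair was past the rule in the higher direction, as were 3.64% of the genes measured there (7.39% in either direction), but the ligated level lay under the 0.58 that foreign markers gave. In the same cells the natural killer sum was 0.0728 and 5.34, with 9 of 9 higher and Ncr1, Klrb1c, Klrd1, Prf1 and Eomes at 0 in the mock library. The T cell sum was 0.178 and 2.39. Their part in the Selplg values was not tested.

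Erythroid-like cells, 85 in mock and 60 in ligated, were the other pair past the rule, with Selplg at 0.167 and 0.88 (difference 1.88). In that cluster 22.1% of the genes measured were past the rule in the higher direction, 1.53% in the lower and 23.6% in either, and the median difference of all of them was 0.56. The natural killer sum there was 0.0871 in mock and 3.95 in ligated cells. The cluster also held macrophage markers, with a sum over 10 genes of 24.2 in mock and 53.0 in ligated cells, 9 higher and 1 lower. The part of these cells in the Selplg values was not tested. In the clusters with few mock cells Selplg was at 0.353 and 2.04 (cluster 8), 0.282 and 0.562 (cluster 9) and 1.14 and 3.48 (cluster 11). The ligated value of cluster 8 lay under the 2.48 that foreign markers gave.

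**Figure D2:**
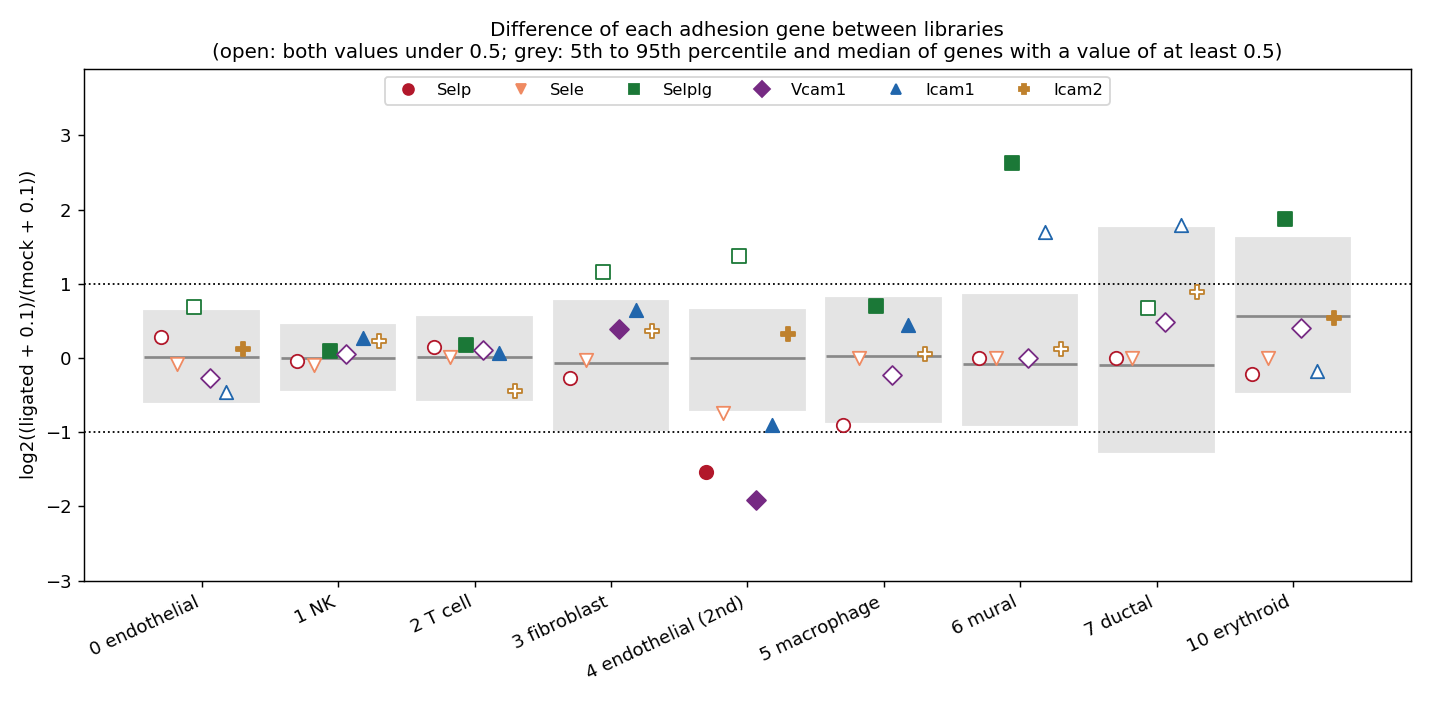
Difference of each adhesion gene between libraries, log2((ligated + 0.1)/(mock + 0.1)), in the 9 compared clusters; open points have both values under 0.5, and grey bars span the 5th to the 95th percentile of genes with a value of at least 0.5, with their median. Selp at -1.54 and Vcam1 at -1.91 lie low in cluster 4, and Selplg at 2.63 lies high in cluster 6.

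Vcam1, the ligand of the integrin made of Itga4 and Itgb1, had its highest levels in fibroblast-like cells and, in the mock library, in cluster 4. In cluster 4 it stood at 0.842 in mock and 0.15 in ligated cells, a difference of -1.91 from about 123 and 50.9 UMIs. Cluster 0 was far lower, at 0.0592 and 0.0324. Of the Vcam1 of each library, endothelial-like clusters carried 62.6% in mock and 8.93% in ligated.

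Fibroblast-like cells showed Vcam1 at 0.89 in 188 mock and 1.20 in 1149 ligated cells, a difference of 0.39 from about 214.5 and 1969 UMIs. Their share of all Vcam1 was 31.7% in the mock and 70.3% in the ligated library. The subset of cells that the authors named after Pdgfra, Pdgfrb and Gli1 gave a like value: its fibroblast-like cluster stood at 0.969 in 167 mock and 1.28 in 949 ligated cells (0.36). No member was past the rule in fibroblast-like cells, where 7.92% of the genes measured were. Most Vcam1 was thus carried by endothelial-like cells in the mock and by fibroblast-like cells in the ligated library, whose shares of cells also differed.

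The remaining Vcam1 was low. Macrophage-like cells stood at 0.159 and 0.12, mural-like cells at 0.023 and 0.0234, and natural killer-like cells at 0.0062 and 0.0099. T cell-like cells stood at 0.0075 and 0.016, ductal-like cells at 0 and 0.0398, and erythroid-like cells at 0 and 0.0319. The T cell-like mock value came from 1 cell. Schwann-like cluster 9, with 17 mock cells, was at 0.43 and 0.65, and held 8.97% of the Vcam1 of the ligated library. Clusters 8 and 11 gave 0 and 0.217, and 0.0586 and 0.241.

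Icam1, a ligand of the integrins made of Itgb2 with Itgal or Itgam, was spread over endothelium, leukocytes and fibroblasts. In cluster 4 it stood at 0.629 in mock and 0.291 in ligated cells, a difference of -0.90, and in cluster 0 at 0.306 (about 606 UMIs) and 0.195 (about 489 UMIs), a difference of -0.46. Fibroblast-like cells went the other way, at 0.381 and 0.652, a difference of 0.64; in the fibroblast-like cluster of the subset it was 0.42 and 0.686 (0.60). No Icam1 pair was past the size rule as set; cluster 4 was past it with a pseudocount of 0.01 (-1.09).

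Among leukocyte-like cells Icam1 stood at 0.562 and 0.70 in natural killer-like cells (0.27), at 0.613 and 0.644 in T cell-like cells (0.06) and at 0.412 and 0.60 in macrophage-like cells (0.45). All 3 were higher in the ligated library, and the T cell-like values were almost equal. After subtraction of the level of foreign markers the T cell-like difference was -0.005. Leukocyte-like clusters carried 34.5% of Icam1 in the mock and 65.7% in the ligated library, while endothelial-like clusters carried 58.9% and 13.1%, and fibroblast-like cells 4.87% and 13.5%.

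Mural-like and ductal-like cells had Icam1 at 0.0388 and 0.352, and at 0.0022 and 0.254, with differences of 1.70 and 1.79 that stayed under the minimum value of 0.5. In the mural-like cluster of the subset it was listed at 0 in mock and stood at 0.0991 in ligated cells. Ductal-like cells had the widest background: 24.9% of the genes measured were past the rule, and 0 of the 6 members. Erythroid-like cells stood at 0.14 and 0.111. In the clusters with few mock cells Icam1 was at 0 and 0.52 (cluster 8), 0.025 and 0.164 (cluster 9) and 0.301 and 0.402 (cluster 11). The mock value of cluster 9 came from 1 cell.

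Icam2, which endothelium carries at rest, differed little between libraries in endothelial-like cells. It stood at 3.04 in mock and 3.32 in ligated cells of cluster 0 (0.13), and at 4.19 and 5.25 in cluster 4 (0.32). Cluster 4 thus held Icam2 slightly higher and Selp, Sele, Vcam1 and Icam1 lower in the ligated library. Endothelial-like clusters carried 94.6% of the Icam2 of the mock and 86.2% of that of the ligated library.

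Erythroid-like cells also held Icam2, at 1.37 and 2.03, but that cluster held endothelial markers as well, with a sum of 89.6 and 79.8 over 11 genes. Elsewhere the gene was low: 0.146 and 0.188 in natural killer-like, 0.427 and 0.286 in T cell-like, 0.24 and 0.251 in macrophage-like, 0.0663 and 0.114 in fibroblast-like, 0.306 and 0.34 in mural-like and 0.123 and 0.311 in ductal-like cells. Fibroblast-like cells were under the level of foreign markers in both libraries. Clusters 8, 9 and 11 gave 0.0977 and 0.933, 0.20 and 0.219, and 3.33 and 0.407. In cluster 11 the endothelial sum was 71.1 in mock and 9.57 in ligated cells, with 11 of 11 lower. The ligated value of cluster 8 lay under the 1.22 that foreign markers gave. The mock value of cluster 8 came from 1 cell.

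Cluster 4 held several vessel types at once, since arterial, venous and lymphatic markers were all detected in it. The 5 venous markers summed to 7.83 in mock and 4.46 in ligated cells, and 5 of 5 were lower: Vwf at 2.37 and 0.815, Ackr1 at 0.786 and 0.357, Lrg1 at 2.93 and 1.91, Nr2f2 at 0.776 and 0.509, and Ephb4 at 0.964 and 0.874. The 6 arterial markers summed to 21.1 and 22.2 (4 lower, 2 higher) and the 6 lymphatic markers to 9.18 and 10.5 (4 lower, 2 higher). The 11 general endothelial markers summed to 142.1 and 116.2 and were lower in 11 of 11. Whether the lower Selp, Vcam1 and Icam1 reflect fewer venous cells in the cluster or less transcript in them cannot be told apart from cluster means.

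**Figure D3:**
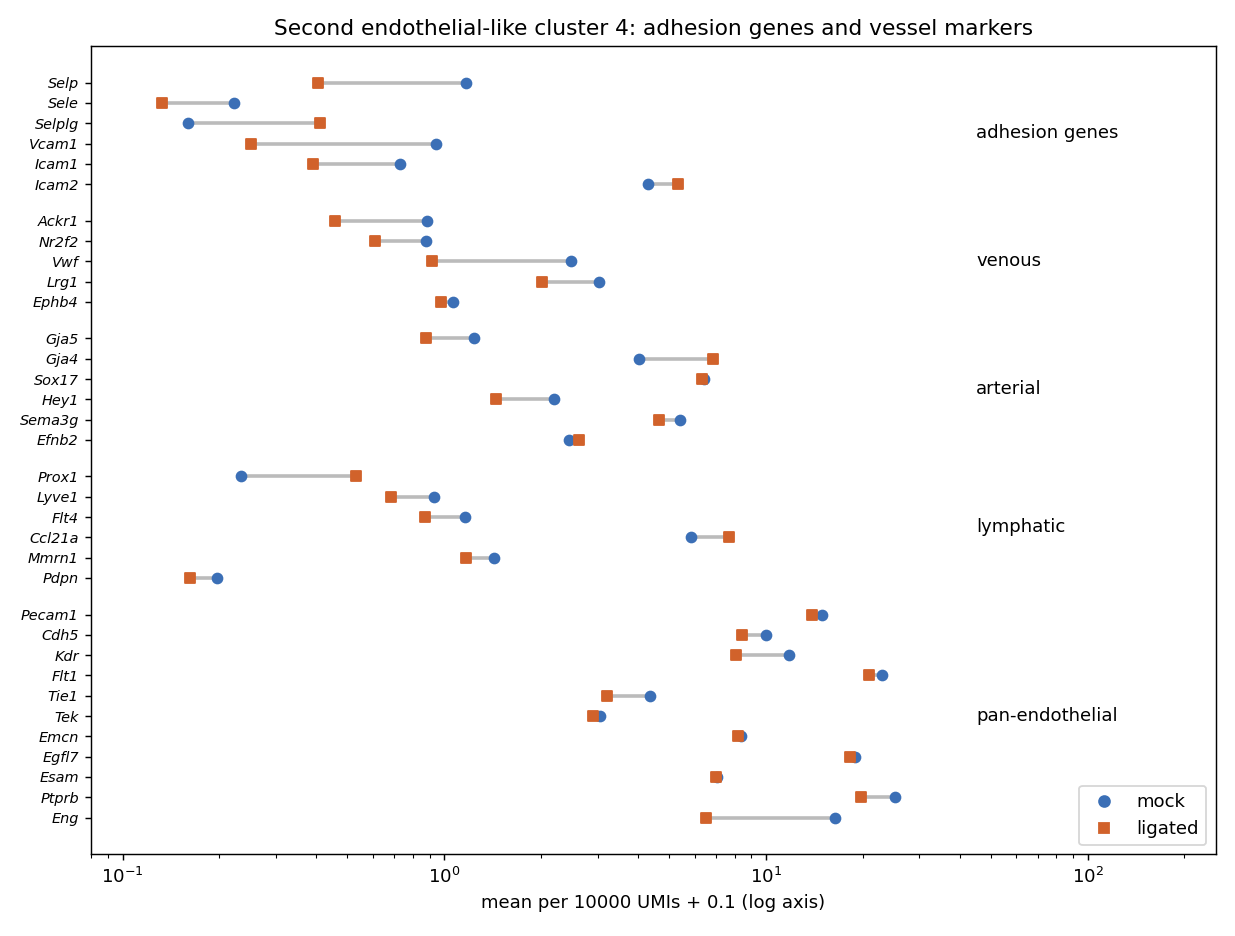
Second endothelial-like cluster 4, adhesion genes beside vessel markers: each gene's mean UMIs per 10000 in the mock and the ligated library, on a log axis. Selp, Vcam1, Sele and Icam1 sit lower in the ligated library, as do the 5 venous markers, while Icam2 stands at 4.19 in mock and 5.25 in ligated cells.

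The counterparts of the members on leukocytes were present in both libraries. Itgal, the partner of Itgb2 in the integrin that grips ICAM-1 and ICAM-2, stood at 1.45 in mock and 0.981 in ligated natural killer-like cells, 2.14 and 1.26 in T cell-like cells and 0.938 and 0.532 in macrophage-like cells. Itgb2 stood at 1.84 and 1.29, 2.09 and 1.62, and 1.77 and 1.16 in the same clusters. Both chains were thus lower in the ligated library in 3 of 3 leukocyte-like clusters, within the size rule. Itgam, another partner of Itgb2 and typical of myeloid cells, was at 0.721 and 0.654 in macrophage-like cells.

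The VCAM-1 receptor chain Itga4 was lower in ligated natural killer-like cells (0.707 and 0.516) and macrophage-like cells (1.25 and 0.731) and higher in T cell-like cells (1.82 and 2.51). Its partner Itgb1 stood at 5.67 and 3.74, 1.99 and 2.60, and 4.40 and 4.06 in those clusters. Itgb7, the other partner of Itga4, was at 1.08 and 0.747 in natural killer-like and 2.47 and 1.76 in T cell-like cells. Of the leukocyte integrin list, 7 of 10 genes were measured in each of these clusters and 0 were past the size rule in any of them. Over all genes measured there, 2.12%, 3.01% and 6.51% were past it. The medians of the list were -0.48, -0.12 and -0.58 in clusters 1, 2 and 5, beside medians near 0 over all genes measured (-0.0041, 0.01 and 0.03).

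Of the enzymes that build the selectin-binding sugar on PSGL-1, Fut7 did not exceed 0.0344 and Gcnt1 did not exceed 0.284 in the leukocyte-like clusters. Of the list of such enzymes, 10 genes had a row, and 3, 2 and 3 were measured in clusters 1, 2 and 5.

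The other trafficking genes came from 10 lists, of which 99 genes had a row. Over all genes measured in cluster 0, 2.53% were past the rule in the higher and 1.73% in the lower direction, beside 4.55% each way for the list genes. In cluster 0, 44 were measured, with 2 higher and 2 lower past the rule: Cxcl12, a chemokine shown on vessel walls, at 45.8 and 11.1 (-2.03), Cd24a, a selectin ligand, at 6.60 and 2.55 (-1.34), Cxcl10, an interferon-induced chemokine, at 0.0269 and 0.564 (2.39), and Ccl5 at 0.564 and 3.39 (2.39). Ccl5 is a lymphocyte chemokine and stood at 43.8 and 79.6 in natural killer-like cells. In cluster 4, 47 were measured, with 2 higher (4.26%) and 4 lower (8.51%), beside 2.04% and 1.93% over all genes measured there. Lower were Edn1, the endothelin gene, at 15.1 and 2.00 (-2.85), Cxcl12 at 74.8 and 22.9 (-1.70), Vwf (-1.43), and Adam17, a protease that sheds adhesion molecules, at 1.00 and 0.367 (-1.24). Higher were Ccl5 at 0.565 and 4.93 and Cd63, a Weibel-Palade body membrane protein, at 0.222 and 0.65, which stood at 6.47 and 8.61 in macrophage-like cells.

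Of the 14 NF-kB response genes, 6 were measured in cluster 4, 0 were past the rule and their median difference was 0.02, beside -0.01 over all genes measured there. In cluster 0 the median of 6 measured was -0.02 and 0 were past the rule. Over all genes measured, 2.12% were past the rule in natural killer-like and 3.01% in T cell-like cells. In macrophage-like cells 6.51% were, 2.92% higher and 3.59% lower. In natural killer-like cells 34 list genes were measured and 1 was past the rule, the endothelial gene Plvap at 0.328 and 0.786. In T cell-like cells 36 were measured and 1 was past it, Cxcl12 at 0.797 and 0.343. In macrophage-like cells 50 were measured, with 1 higher, Ccl5 at 3.06 and 18.1, and 5 lower, among them Cd44 at 1.35 and 0.367, Cd24a at 1.14 and 0.297, St3gal4 at 0.695 and 0.157, and Cxcl12 at 2.72 and 0.747.

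Averaged over all cells of a library, Selplg was at 1.10 in mock and 2.60 in ligated (difference 1.16), Icam2 at 2.05 and 1.28 (-0.64), Selp at 0.104 and 0.0475 (-0.47), Sele at 0.0196 and 0.0055 (-0.18), Vcam1 at 0.126 and 0.172 (0.27) and Icam1 at 0.351 and 0.488 (0.38). The libraries differ in their mix of clusters, so the ligated values were also averaged at the mix of the mock library. The differences then were 0.28 for Selplg, 0.15 for Icam2, -0.18 for Selp, -0.13 for Sele, -0.22 for Vcam1 and -0.05 for Icam1. Icam2, Vcam1 and Icam1 changed sign at this mix, and Selp and Sele kept a negative one. With every cluster weighted equally, Vcam1 (0.10) and Icam1 (0.40) were again positive, Icam2 was near 0 (0.0105), Selplg was at 0.64, Selp at -0.55 and Sele at -0.13.

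**Figure D4:**
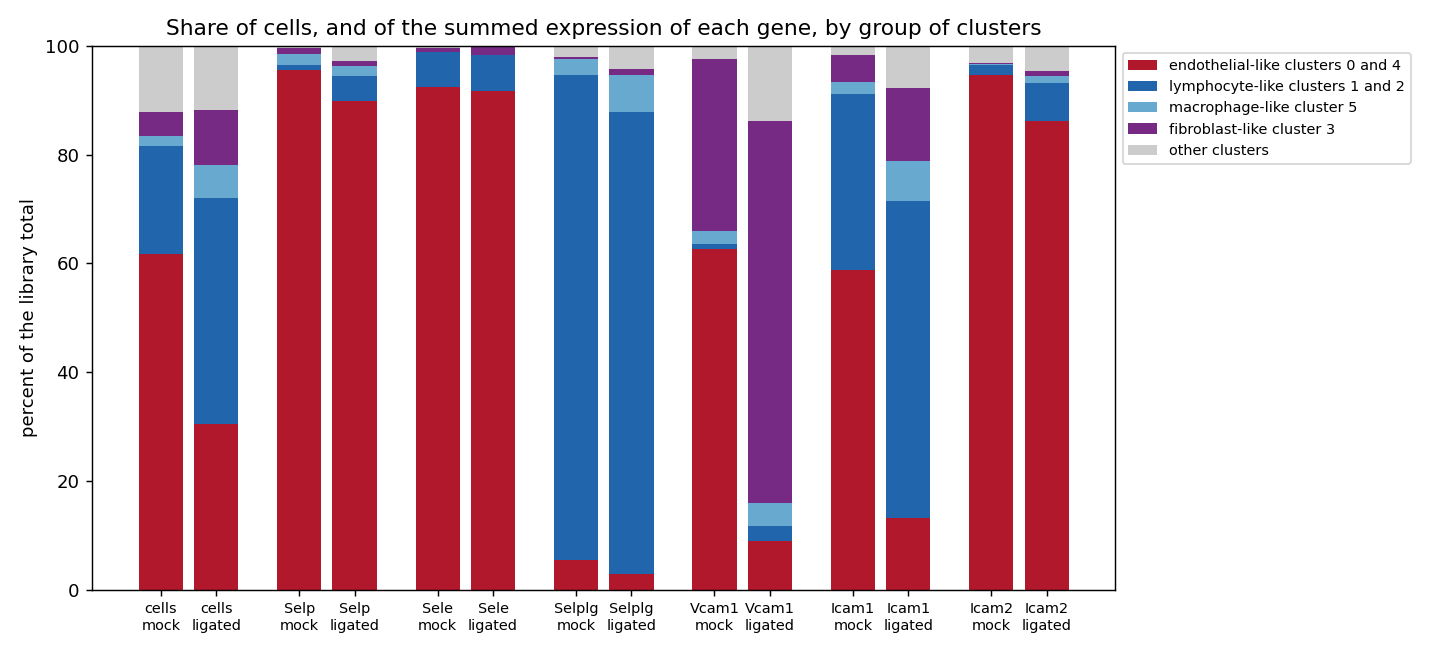
Share of cells, and of the summed expression of each gene (cluster mean times cells), by group of clusters and library, in percent. Endothelial-like clusters carry 62.6% of Vcam1 in the mock and 8.93% in the ligated library, and leukocyte-like clusters carry 34.5% and 65.7% of Icam1.

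Similarity across the 24 cluster means of both libraries was measured by Pearson's r of log2(value + 0.1), as a description, since columns of a library share cells of the same glands, depth and free RNA. Selp was most like Sele (0.92), Gkn3 (0.91) and Syt7 (0.91), and Sele was most like Gm21541 (0.95), Fam107a (0.94) and Selp (0.92). Other genes were ranked only if above 0 in both libraries with a maximum of at least 0.5. Sele, with a maximum of 0.122, was ranked without meeting this minimum, while other genes as low were left out. Sele was also listed at 0 in 7 of 12 clusters of each library. That the 2 endothelial selectins were among each other's nearest genes therefore holds only for this choice of genes. Their Spearman's rho was 0.61. Selplg was most like Ptprc (0.99), Rac2 (0.98) and Cd37 (0.98), and Icam2 was most like Robo4 (0.97), Rasip1 (0.97) and Cdh5 (0.96). Vcam1 and Icam1 had looser neighbours: Ahnak2 (0.87), Scd1 (0.86) and Fgfr1 (0.83) for Vcam1, and Lrrk1 (0.89), Ptger4 (0.84) and Akap13 (0.81) for Icam1. Between Vcam1 and Icam1 themselves r was 0.24, and between Selplg and Selp it was -0.28.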

How the data were processed

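Droplet single-cell RNA libraries were measured, 1 per group. The authors deposited 4 tables of cluster means (12 clusters of all cells, and 5 of a subset, each joint and split by condition); the unit is neither counts nor CPM but a mean over cells of UMIs per 10000, read from the values because every column sums to 10000. Cell Ranger 6.0.1, Seurat and mm10 are named in the submitters' processing notes; filters on cells, clustering, annotation and doublet removal are not given in the sources used here, and no doublets were called. The tables hold means, so cell barcodes could not be compared between libraries, and no count model, interval or test was used for expression. All value columns had a sample (0 without one), and 21 gene symbols turned into dates were restored from gene order.

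Cell numbers were recovered from the ratio of joint to split values of genes listed at 0 in 1 library, and UMI totals from genes that a single cell carried alone. Clusters were named from 22 marker lists. The level of foreign markers is the median percent of the library mean over markers of other cell types with a library mean of at least 0.5. Percentages past the size rule count genes above 0 in both libraries (16296 of 20140) whose higher value in the cluster reached 0.5. List genes counted as measured met the same condition. List genes were named where past the rule in an endothelial-like or leukocyte-like cluster, with the integrins, Fut7 and Gcnt1 as counterparts, and the 3 genes most alike to each member. The members, lists and thresholds were chosen with earlier results of these data known. Alternatives changed the pseudocount, the thresholds, the clusters used, centring, subtraction of the level of foreign markers, the mix of clusters and the measure of likeness. One list gene is not reported here. The code was tested on simulated data, with Python 3.11.15, numpy 2.4.6, pandas 2.3.3, scipy 1.17.1 and matplotlib 3.10.9.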

Additional observations from a re-analysis of the deposited data

Results flagged for a closer look

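Icam1 differed in opposite directions between cell types. It was lower in the ligated library in the second endothelial-like cluster 4 (-0.90) and higher in fibroblast-like cluster 3 (0.64), with 1 library per group on each side. The difference between the 2 clusters was not tested, and both values were under the size rule as set. The cluster 3 value lay between the 5th and 95th percentile of genes measured there (-0.97 to 0.76). The cluster 4 value lay below that range of its own cluster (-0.71 to 0.65). With a pseudocount of 0.01 (-1.09), and after subtraction of the level of foreign markers (-1.11), the cluster 4 value was past it.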

How the results depend on the processing

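No paired analysis was possible because each group has 1 library and no test was run. Member pairs past the size rule numbered 4 in the report; there were 0 with a pseudocount of 1, 8 with no minimum value, 0 with a minimum of 2, 1 with a difference of at least 2, and 9 over all 12 clusters; a pseudocount of 0.01 gave 5, adding Icam1 in cluster 4. In the same order without the last, list genes past the rule numbered 48, then 19, 110, 23 and 16. Background genes, summed over clusters, numbered 2735 (9.06% of those measured), then 503, 6262, 725 and 559. Far more genes were measured in the background than in the lists, so these counts cannot be set against each other. After subtraction of the level of foreign markers 3 pairs were past the rule, 0 higher and 3 lower (Selp, Vcam1 and Icam1 in cluster 4). List genes went from 26 higher and 22 lower to 10 and 30, and background genes from 1707 and 1028 to 878 and 1534. Over pseudocounts, centring and subtraction the difference in cluster 4 ran from -1.78 to -0.67 for Selp, -2.41 to -0.68 for Vcam1 and -1.11 to -0.34 for Icam1, and that of Selplg from 0.00 to 5.73 in mural-like and 0.69 to 2.33 in erythroid-like cells. At the mock mix of clusters the library difference of Selplg was 0.28 and of Icam2 0.15; Icam2 gave 0.0105 with equal weights. Selplg in mural-like cells was 1.13 in the subset tables. Of 97 library values of members above the level of foreign markers, 61 were above its 90th percentile. Of 18 genes most alike, 7 were kept by Spearman's rho and 10 with a pseudocount of 1. Cell numbers by least squares were equal in 12 of 12 clusters. For these results the cause was not tested. Precision is limited by depth that is known only from recovered totals, so no counting interval could be given.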

Other observations

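Inside the endothelial-like cluster of the authors' Pdgfra, Pdgfrb and Gli1 subset (82 mock and 260 ligated cells), Vcam1 and Icam1 stood higher in the ligated library, at 0.113 and 0.317 (0.97) and at 0.101 and 0.286 (0.94), both under the minimum value of 0.5. Icam2 stood at 2.54 and 2.62, Selp at 0.0199 and 0.0596, and Sele at 0.0066 and 0.0238. The same cells held Selplg at 0 and 0.136 and the pan-leukocyte gene Ptprc at 0 and 0.227, together with Pdgfra at 1.96 and 2.67, a fibroblast gene. Vcam1 and Icam1 were lower in the ligated library in clusters 0 and 4 of all cells. The difference between these endothelial-like populations was not tested.

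The capillary markers of cluster 0 summed to 195.6 in mock and 78.1 in ligated cells, with 4 of 5 lower, while the 5 venous markers there summed to 2.43 and 2.53 and Selp stood at 0.0734 and 0.11.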
